A study of Mus musculus with 2 samples.

Results

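Oxidative phosphorylation genes were followed in hippocampal microglia of young mice, in a Control library and in a library from mice with fetal growth restriction (FGR). The members were 37 genes given by symbol: 24 coded in the nucleus and 13 coded by the mitochondrial genome, among 32245 symbols in the files. All 37 were found. The question was how the nuclear-coded members compared with the mitochondrially coded ones, within each library and between them. Both groups were Tmem119-tdTomato+/- mice, which carry a red reporter at the microglial gene Tmem119, at 3 weeks after birth. Cells positive for Tmem119 were sorted from the hippocampus and sequenced with a droplet method that counts molecules from the 3′ end of the mRNA. The labels used here do not say how growth was restricted, how many animals were pooled, or their sex. There was 1 library for each group, so no difference had a replicate check: it compares those libraries, not the conditions, and every interval covers counting error only.

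Oxidative phosphorylation makes most of the ATP of many cells. Complexes I to IV of the inner mitochondrial membrane pass electrons from NADH and succinate to oxygen and, except for complex II, pump protons, and complex V lets the protons back and makes ATP. The mitochondrial DNA codes the membrane core of complexes I, III, IV and V, and every other subunit, with all of complex II, is coded in the nucleus, made in the cytosol and imported. The assembly of complexes I, III, IV and V therefore needs products of both genomes. Microglia, the resident macrophages of the brain, use both oxidative phosphorylation and glycolysis.

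The 13 mitochondrial members lie close together on the circular mitochondrial genome (GRCm38, GENCODE M21 annotation). They have no introns, and all but mt-Nd6 are read from the same strand. They are transcribed as long precursors and cut apart, mostly at the tRNAs between them. 2 pairs share a messenger RNA because their reading frames overlap, and the overlaps are shown because they bear on how reads can be given to either gene. Capitals in the first mark the start codon of mt-Atp6 and the stop codon of mt-Atp8, in the second the shared bases of mt-Nd4l and mt-Nd4, and in the third the bases where mt-Nd5 meets mt-Nd6, which is read from the opposite strand.

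mt-Atp8 and mt-Atp6, chrM:7927-7969, + strand: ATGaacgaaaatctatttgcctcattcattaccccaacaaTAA
mt-Nd4l and mt-Nd4, chrM:10144-10173, + strand: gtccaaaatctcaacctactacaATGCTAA
mt-Nd5 and mt-Nd6, chrM:13536-13565, + strand: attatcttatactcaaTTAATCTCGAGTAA

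The first overlap is 43 bases long (chrM:7927-7969), the second 7 bases (chrM:10167-10173) and the third 14 bases (chrM:13552-13565).

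Nuclear-coded members lie scattered over the chromosomes and are each transcribed from a promoter of their own. Promoter windows of 300 bases, 250 before to 50 after the RefSeq start (GRCm38.p6), matched 17 of the 24 by symbol or synonym. They were searched on both strands for 3 cores of 8 bases: GCGCATGC for NRF1, CCGGAAGT for ETS factors such as GABP, and AAGATGGC for YY1. No core holds another, and factors of all 3 kinds are known regulators of respiratory genes. Members were counted as genes, with a core in any window of the gene. The share beside them was counted over single windows, whether or not their gene was measured here. The NRF1 core stood in 4 of 17 members (23.5%), and in 2.71% of all 32851 windows. The ETS core stood in 2 (Uqcrh and Cox8a, 11.8% against 3.89%) and the YY1 core in 3 (Ndufb8, Ndufc1 and Atp5j2, 17.6% against 2.75%). At least 1 core was present in 9 of 17 members (52.9%) and in 8.83% of all windows. The 4 stretches around the NRF1 core, in capitals and on the strand of the gene, show the same letters at different distances from the start.

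Ndufa6, chr15:82354356-82354385, - strand: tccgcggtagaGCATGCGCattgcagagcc
Sdhb, chr4:140961206-140961235, + strand: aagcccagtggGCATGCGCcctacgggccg
Atp5k, chr5:108434431-108434460, - strand: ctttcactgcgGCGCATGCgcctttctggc
Atp5l, chr9:44920964-44920992, - strand: aaccaataacGCATGCGCatttcccccac

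The core began 83 bases before the RefSeq start in Ndufa6, 54 in Sdhb, 50 in Atp5k and 240 in Atp5l. The GENCODE annotation starts the gene elsewhere. It starts Sdhb at chr4:140961203, before the core, and Atp5k at chr5:108434448, within the core. In Atp5k the printed bases hold it in both directions, overlapping, and capitals mark the first match, in the direction of the gene. The other genes show it in the opposite direction only. These are matches of letters, and no binding was measured. The ratios of the 4 genes lay on both sides of 1: as given below, Atp5k and Sdhb were higher in the FGR library by their ratio, and Ndufa6 and Atp5l were slightly lower. Only the interval of Atp5k did not hold 1, so a split among the 4 beyond counting error was not shown.

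A barcode counted as a cell at 1500 or more UMIs (unique molecular identifiers, counted molecules) and 200 or more genes, with at most 10% of UMIs from symbols starting mt-. This left 10687 Control and 8618 FGR cells, with a median of 4657 and 4919.5 UMIs and 53560293 and 45441515 UMIs in all. The mt- symbols are the 13 mitochondrial members themselves, so this limit caps their sum per cell. It removed 16 Control and 27 FGR barcodes. The 12 microglial markers were each detected in 77.8% to 99.9% of cells, and none was at 0. The 2 libraries shared 31 cell barcodes. Levels are UMIs per 1000000 UMIs of the cells (CPM). The annotation places another gene across Cox4i1, Ndufb8 (Gm20538), Ndufb9 (Gm49356), Uqcrb (Gm10767), Cox6c (Vps13b), Cox5a (Gm26631) and Atp5l (Gm30934), so the division of reads at these loci is uncertain. A molecule gives 1 UMI whatever its length, so levels were not divided by length.

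The mitochondrial members were far more abundant than the nuclear ones. Their summed level was 22619 CPM in Control (95% Poisson interval 22579 to 22660) and 22197 CPM in FGR (22154 to 22240). The 24 nuclear members summed to 3527 CPM (3511 to 3543) in Control and 3613 CPM (3596 to 3631) in FGR. There were 6.41 mitochondrial UMIs for each nuclear-coded UMI in Control and 6.14 in FGR. A cell held a median of 1.94% mitochondrial UMIs in Control and 1.95% in FGR, with the 5th to 95th percentiles at 0.732% to 4.38% and 0.598% to 4.52%. Cells under 1% made up 11.5% of the Control library and 15.04% of the FGR library.

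Among the mitochondrial members, levels spanned nearly the whole range of the set. mt-Atp6, the proton channel subunit of complex V, stood at 4773 CPM in Control and 4659 CPM in FGR and was the highest member in both. mt-Atp6, mt-Co3, mt-Co2, mt-Co1 and mt-Cytb together gave 75.1% of the mitochondrial sum in Control and 74.0% in FGR. At the other end stood mt-Atp8, a small complex V subunit, at 54.9 and 59.0 CPM, and mt-Nd6, the only member on the other strand, at 56.3 and 59.5 CPM.

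The partners on shared messenger RNAs were counted very unequally. mt-Atp6 had 87.0 UMIs for each UMI of mt-Atp8 in Control and 78.9 in FGR, although their frames overlap on the same message. mt-Nd4 had 15.4 UMIs for each UMI of mt-Nd4l in Control and 11.8 in FGR. In barcodes of 10 to 100 UMIs the same ratios were 87.1 and 80.5 for mt-Atp6 over mt-Atp8. A count of mt-Atp8 or mt-Nd4l is here a count of reads given to that gene, not of the shared message.

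Nuclear-coded members lay closer together. Cox4i1, the largest nuclear-coded subunit of complex IV, was the highest at 468 CPM in Control and 444 CPM in FGR. Ndufc1, an accessory subunit of complex I, was the lowest at 48.5 CPM and 50.1 CPM. It passed the minimum of 50 CPM, required in at least 1 library, only through the FGR library, where it was higher. The other 23 nuclear members and all 13 mitochondrial members passed in both libraries or in Control already.

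**Figure D1:**
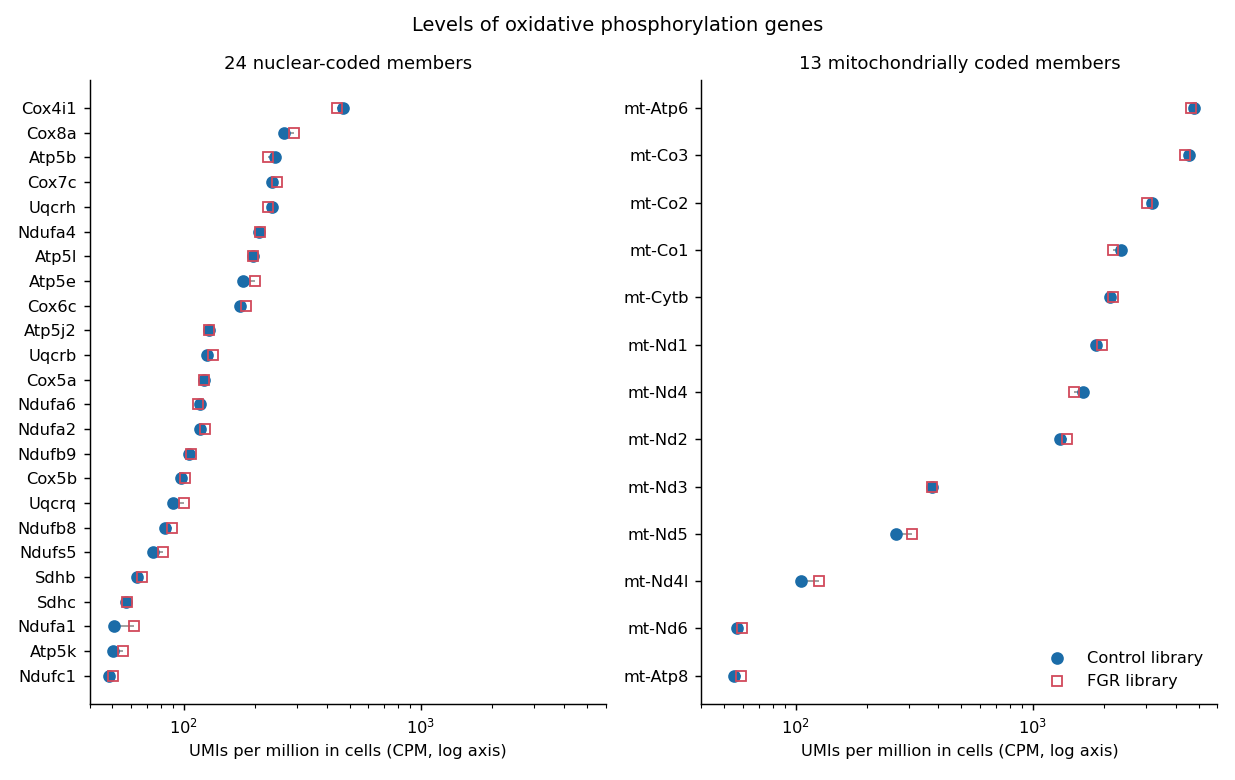
Level of each member in CPM (log axis) in the Control library (filled circles) and the FGR library (open squares), nuclear-coded members on the left and mitochondrially coded members on the right, ordered by the Control level. The libraries differ little beside the differences between genes: Cox4i1 (468 and 444 CPM) tops the nuclear panel and mt-Atp6 (4773 and 4659 CPM) the mitochondrial one.

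Between the libraries, the nuclear-coded sum was slightly higher in FGR and the mitochondrial sum slightly lower. The ratio of FGR over Control was 1.02 (95% interval 1.02 to 1.03) for the nuclear members and 0.981 (0.979 to 0.984) for the mitochondrial members. The first ratio divided by the second was 1.044 (1.037 to 1.051). The median of single ratios was 1.04 over the 24 nuclear members and 1.03 over the 13 mitochondrial members, against 0.954 over the 3512 genes that reached 50 CPM in at least 1 library. The mitochondrial sum and the median of its members thus stood on different sides of 1, and the 4 members most abundant in Control (mt-Atp6, mt-Co3, mt-Co2 and mt-Co1) had ratios below 1. In FGR mt-Cytb stood just above mt-Co1, at 2182 against 2173 CPM.

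A gene was counted past a fold when its whole 95% interval lay beyond it. Past 1.1-fold higher in FGR were 1 of 24 nuclear members (Ndufa1) and 2 of 13 mitochondrial members (mt-Nd4l and mt-Nd5), against 9.2% of all genes measured. Past 1.1-fold lower were 0 nuclear and 0 mitochondrial members, against 21.6% of all genes. No member was past 1.5-fold, against 2.48% of all genes higher and 1.17% lower. By the looser reading that the whole interval lay above 1, 11 of 24 nuclear members (45.8%) and 7 of 13 mitochondrial members (53.8%) were higher, against 23% of all genes. Whole intervals below 1 were found for 3 nuclear members (12.5%) and 5 mitochondrial members (38.5%), against 53% of all genes.

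Complex I, NADH dehydrogenase, is the entry point for electrons from NADH. Its 8 nuclear-coded members summed to 803 CPM in Control and 837 CPM in FGR, a ratio of 1.04 (1.03 to 1.06). Ndufa1, a small X-linked membrane subunit, was at 50.5 CPM in Control and 61.7 CPM in FGR, a ratio of 1.22 (1.16 to 1.29) and the largest among the 37. Ndufs5 followed, an accessory subunit facing the intermembrane space, at 74.0 and 81.7 CPM (1.104, 1.055 to 1.155). Whole intervals above 1 were also found for Ndufb8 (83.3 and 88.7 CPM, 1.07) and Ndufa2 (116 and 123 CPM, 1.053). The intervals of Ndufa4, Ndufa6, Ndufb9 and Ndufc1 held 1, with ratios from 0.981 for Ndufa6 (117 and 115 CPM) to 1.03 for Ndufc1 (48.5 and 50.1 CPM). Ndufb9 was at 106 and 107 CPM. Ndufa4, at 207 and 210 CPM, is named for complex I, has since been placed in complex IV, and is kept here under its name.

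The 7 mitochondrial members of complex I summed to 5581 CPM in Control and 5709 CPM in FGR (1.02, 1.02 to 1.03), and they split. mt-Nd4l was at 105 CPM in Control and 126 CPM in FGR, a ratio of 1.19 (1.15 to 1.24). mt-Nd5, one of the proton-pumping subunits, was at 265 and 308 CPM, a ratio of 1.16 (1.14 to 1.19). mt-Nd4, whose message carries mt-Nd4l as well, was at 1624 and 1487 CPM, a ratio of 0.916 (0.906 to 0.925) and the lowest of the 37. Between these stood mt-Nd1 (1851 and 1964 CPM, 1.06), mt-Nd2 (1305 and 1389 CPM, 1.06), mt-Nd6 (1.06) and mt-Nd3, whose interval held 1 (374 and 375 CPM). Members of the same complex, coded by the same genome, were thus on both sides of 1.

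Complex II, succinate dehydrogenase, has no mitochondrially coded subunit. Sdhb, its iron-sulfur subunit, was at 63.2 CPM in Control and 66.4 CPM in FGR, a ratio of 1.0496 whose interval (0.999 to 1.103) held 1. Sdhc, a membrane anchor, was at 56.9 and 57.5 CPM (1.01, 0.960 to 1.07). Neither differed beyond counting error.

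Complex III hands electrons from ubiquinol to cytochrome c. Uqcrq was at 90.0 CPM in Control and 100.3 CPM in FGR (1.12, 1.07 to 1.16), and Uqcrb at 125 and 132 CPM (1.061, 1.024 to 1.098). Uqcrh, the hinge subunit next to cytochrome c1, was the most abundant of the 3 and stood on the other side, at 235 and 226 CPM (0.966, 0.941 to 0.991). A processed pseudogene, Gm12854, lies within the Uqcrh locus, and how reads were divided between them is not stated. The mitochondrial partner, mt-Cytb, the cytochrome b core, was at 2124 and 2182 CPM (1.03, 1.02 to 1.04).

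Complex IV, cytochrome c oxidase, showed the widest gap between the genomes in the levels as counted. Its 3 mitochondrial subunits, which form the catalytic core, were lower in FGR on that scale. mt-Co1 was at 2345 CPM in Control and 2173 CPM in FGR (0.927, 0.919 to 0.934), mt-Co2 at 3174 and 3019 CPM (0.951) and mt-Co3 at 4568 and 4396 CPM (0.963). Of the 6 nuclear-coded subunits, Cox8a (265 and 292 CPM, 1.101), Cox6c (172 and 184 CPM, 1.07) and Cox7c (236 and 247 CPM, 1.047) were higher with their whole interval. The intervals of Cox5a (122.1 and 121.8 CPM) and Cox5b (97.6 and 101.1 CPM) held 1. Cox4i1 was lower, at 0.949 (0.931 to 0.967), and its locus overlaps Emc8 and the gene model Gm20388. Summed, the nuclear part of complex IV stood at 1.02 (1.01 to 1.03) and the mitochondrial part at 0.951 (0.947 to 0.954). With RNA of low-count barcodes subtracted at the red cell bound described below, mt-Co2 went to 1.0006, mt-Co3 to 1.021 and mt-Co1 to 0.980, and at 5% of UMIs they went to 1.013, 1.036 and 0.994. The mitochondrial part of complex IV then stood at 1.005 and 1.019, beside 1.03 and 1.03 for the nuclear part, so its lower level did not hold under either subtraction. The setting of 5% takes off more than the red cell bound, which was 3.29% in Control and 2.53% in FGR.

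Complex V is the ATP synthase. Atp5b, the catalytic beta subunit, was at 242 CPM in Control and 226 CPM in FGR (0.935, 0.911 to 0.959), the lowest ratio among nuclear members. Atp5e, the epsilon subunit of the central stalk, was at 178 and 199 CPM (1.12, 1.08 to 1.15), and Atp5k, the membrane subunit e, at 50.1 and 55.3 CPM (1.104, 1.045 to 1.166). The membrane subunits Atp5j2 and Atp5l did not differ beyond counting error, at 127.4 and 127.4 CPM (0.9996) and at 196 and 196 CPM (0.996). mt-Atp6 stood at 0.976 (0.970 to 0.982), and at 1.038 and 1.053 under the same subtractions, and mt-Atp8 at 1.08 (1.02 to 1.13).

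**Figure D2:**
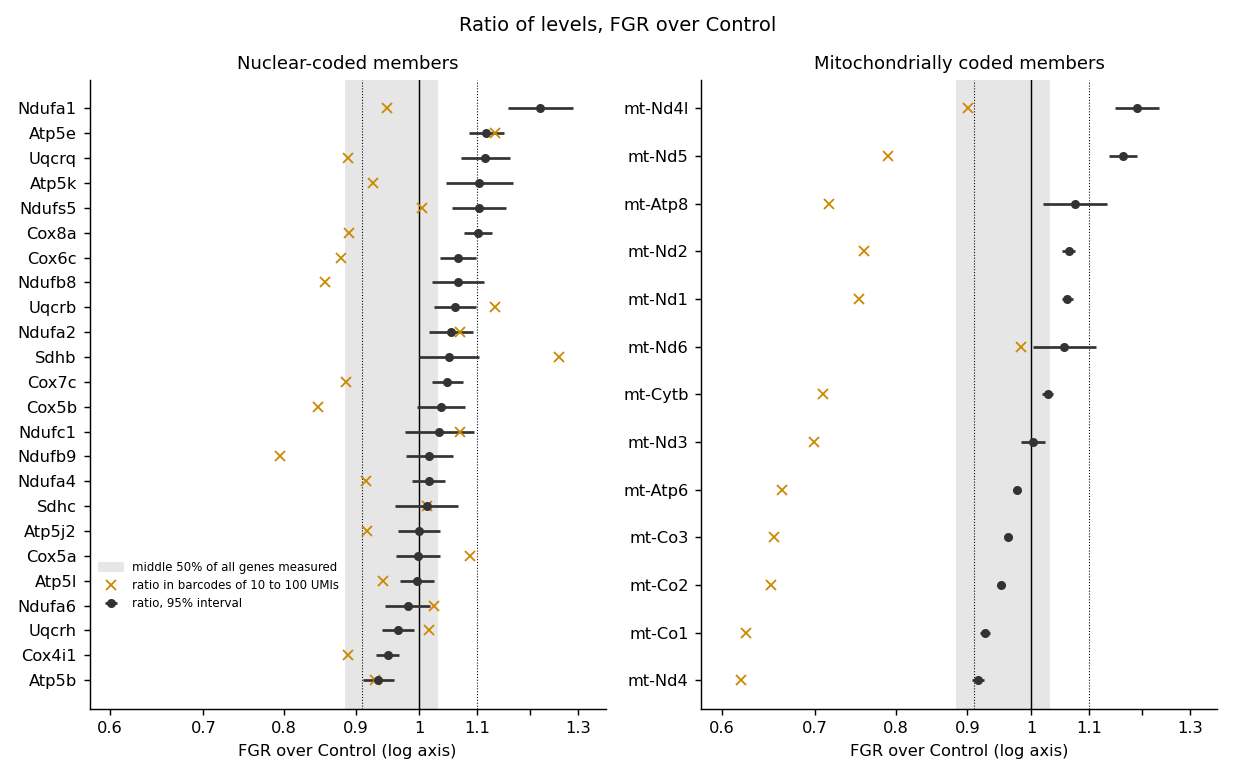
FGR over Control ratio of each member in cells (points with 95% intervals, log axis) and in barcodes of 10 to 100 UMIs (crosses), nuclear-coded members on the left and mitochondrially coded members on the right. The grey band holds the middle 50% of the 3512 genes measured and the dotted lines mark 1.1-fold in both directions. Ndufa1, mt-Nd4l and mt-Nd5 lie past the right dotted line, and the crosses of all 13 mitochondrial members lie below 1, from 0.620 for mt-Nd4 to 0.983 for mt-Nd6.

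The rest of the pathway was read from 55 further nuclear-coded subunit genes, of which 49 reached 50 CPM. Their sum was 5182 CPM in Control and 5261 CPM in FGR (1.02, 1.01 to 1.02), and their median ratio 1.03. The whole interval lay above 1 for 20 (40.8%) and below 1 for 8 (16.3%), shares near those of the nuclear members. Past 1.1-fold stood Ndufa3, an accessory subunit of complex I, at 52.3 and 61.3 CPM (1.17), and on the lower side Cox7a2l, which joins complexes III and IV into supercomplexes, at 329 and 292 CPM (0.888). These were 1 higher and 1 lower of 49, against 9.2% and 21.6% of all genes. Cox6a1 (1.14), Ndufs6 (1.14) and Ndufv3 (1.14) had intervals that did not clear 1.1-fold. For complex I the 29 further genes had a summed ratio of 1.06, and for complexes III, IV and V the sums were at 0.985, 0.982 and 0.991.

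Carriers and import subunits of the mitochondrial membranes had a median near that of all genes. Of 13 measured, 2 had their whole interval above 1 (15.4%, against 23% of all genes) and 9 below (69.2%, against 53%), with a median ratio of 0.944 beside 0.954 over all genes. Slc25a5, an adenine nucleotide translocase that exports ATP, was at 496 and 406 CPM (0.819), and Slc25a3, the phosphate carrier, at 257 and 220 CPM (0.857). Tomm7, a small subunit of the outer membrane translocase, was at 96.8 and 113 CPM (1.17). These 3, with 1 of 13 higher and 2 of 13 lower, were the list's only genes past 1.1-fold, against 9.2% of all genes higher and 21.6% lower. Of 10 glycolytic genes, 7 were higher with their whole interval (70.0%, against 23% of all genes) and 1 lower (10.0%, against 53%). Aldoa, the aldolase of glycolysis, was past 1.1-fold (131 and 150.04 CPM, 1.15), as 1 of 10 against 9.2% of all genes.

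Genes that copy, transcribe and regulate mitochondrial DNA were mostly too low for the 50 CPM minimum. Of 17 listed, only Ssbp1, which coats single-stranded mitochondrial DNA, reached it, with a ratio of 0.962 (0.919 to 1.01). Another 12 lay between 10 and 50 CPM. Among these, 8 had their whole interval below 1 and 2 above, with a median ratio of 0.858, against 40% below, 14.5% above and a median of 0.949 for all 4816 genes at such levels. Tfam, which packs and transcribes mitochondrial DNA, was at 33.8 and 28.4 CPM (0.842, 0.783 to 0.904). Nrf1, whose core was searched for above, was at 35.8 and 31.7 CPM (0.885), Gabpa, the DNA-binding part of the ETS factor GABP, at 48.4 and 39.9 CPM (0.825), and Esrra, a nuclear receptor for respiratory genes, at 38.6 and 31.5 CPM (0.817). These genes were named after their values were seen.

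Among the nuclear members, short genes tended to have the higher ratio. Spearman's rho between the ratio and the longest coding length (GENCODE M21) was -0.55 over the 24 nuclear members, -0.38 over the 49 further subunit genes and -0.18 over 3458 genes measured with a coding length. The 12 nuclear members with at most 300 coding bases had a median ratio of 1.06, and the 10 of more than 300 and up to 600 bases a median of 1.01. Over all genes the medians were 1.03 at up to 300 bases, 0.987 from there to 600 bases and 0.947 above. Atp5e has 156 coding bases, Ndufa1 210 and Atp5b 1587. Other members went against the trend, such as Sdhb, with 846 bases and a ratio of 1.0496, and Uqcrh, with 267 bases and 0.966. Beyond the subunit genes, rho was -0.73 over 13 carrier and import genes and 0.50 over 9 glycolytic genes. Genes are not independent replicates, the points share both libraries, and rho between ratio and level was also negative among the members (-0.43). The part of transcript length in the ratios was not tested.

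**Figure D3:**
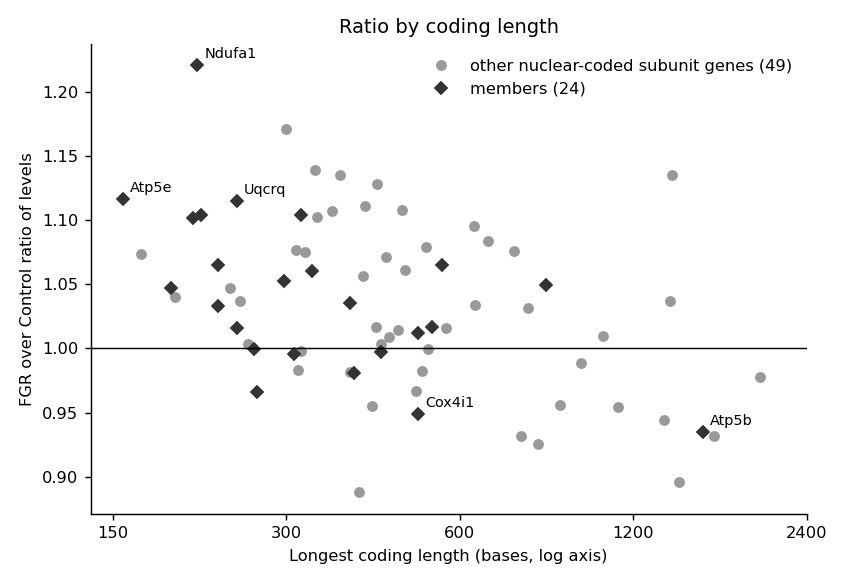
FGR over Control ratio against the longest coding length in bases (log axis) for the 24 nuclear-coded members (diamonds) and 49 other nuclear-coded subunit genes (circles). Ndufa1 (210 bases, 1.22) and Atp5e (156 bases, 1.12) stand at the upper left and Atp5b (1587 bases, 0.935) at the lower right.

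Within single cells the members were counted sparsely. After each cell was thinned to 1500 UMIs, the nuclear sum had a median of 5 UMIs in both libraries (5th to 95th percentile 1 to 10), and the mitochondrial sum a median of 29 in both. The variance over the mean was 1.503 in Control and 1.601 in FGR for the nuclear sum, where pure counting gives 1, and 10.28 and 11.97 for the mitochondrial sum. With counting variance taken off, the coefficient of variation over cells was 0.311 and 0.336 for the nuclear sum and 0.532 and 0.580 for the mitochondrial sum, so cells differed more in their mitochondrial share. mt-Atp6 had a UMI in 97.9% of thinned Control cells and 97.1% of thinned FGR cells (99.7% and 99.5% before thinning). Cox4i1 had one in 47.6% and 45.5% (83.1% and 81.9% before), and Ndufa1 in 7.04% and 8.62% (20.7% and 25.1% before).

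Over cells of the same library, the nuclear and mitochondrial sums went together weakly. Spearman's rho over thinned cells was 0.23 over 10687 Control cells and 0.24 over 8618 FGR cells. It was as large between the nuclear members and the 55 further subunit genes, 0.22 and 0.23. Among the mitochondrial members, a gene's rho with the sum of the other 12 had a median of 0.52 in Control and 0.56 in FGR, from 0.08 and 0.09 for mt-Nd6 to 0.71 and 0.74 for mt-Atp6. For single nuclear members with the other 23 the median was 0.05 in both libraries, where most cells held 0 or few UMIs of the gene. Cells share a library and their shares sum to a whole, so these values describe and carry no test.

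Both sums were lower where nuclear RNA or immediate early RNA was higher. Malat1 and Neat1 are long noncoding RNAs kept in the nucleus, and their rho with the nuclear members was -0.24 in Control and -0.25 in FGR, and with the mitochondrial members -0.32 and -0.31. From the lowest to the highest quartile of Malat1 and Neat1 UMIs, the nuclear sum went from 4172 to 2892 CPM in Control and from 4352 to 3019 CPM in FGR. The mitochondrial sum went from 28186 to 17519 CPM in Control and from 28168 to 17677 CPM in FGR. The 20 immediate early genes, such as Fos and Jun, are switched on within minutes of a stimulus. From the lowest to the highest quartile of their UMIs, the nuclear sum went from 4167 to 2840 CPM in Control and from 4392 to 3071 CPM in FGR, and the mitochondrial sum from 27980 to 16129 CPM and from 27556 to 17636 CPM.

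The libraries differed in how their cells lay over these quartiles, which were set on both libraries together. The highest immediate early quartile held 15.3% of Control cells and 35.7% of FGR cells, and the lowest held 31.5% and 19.3%. Immediate early RNA itself summed to 32894 CPM in Control and 45145 CPM in FGR. Within the quartiles, from lowest to highest, the FGR over Control ratio of the nuclear sum was 1.054, 1.111, 1.154 and 1.081, in each above the pooled 1.02. For the mitochondrial sum it was 0.985, 1.074, 1.198 and 1.093, above 1 in 3 of 4 quartiles against 0.981 when all cells were pooled. The lowest quartile thus kept the pooled sign of the mitochondrial difference, with an interval of 0.980 to 0.990, and the others did not. Immediate early UMIs are part of the total that levels are divided by, and their part in the difference was not tested.

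Single members followed the same way. Within all 4 immediate early quartiles the whole interval lay above 1 for 6 nuclear members (Ndufa1, Ndufa2, Uqcrq, Cox6c, Cox8a and Atp5e) and 5 mitochondrial members (mt-Nd1, mt-Nd2, mt-Nd4l, mt-Nd5 and mt-Cytb), as it did for 11.1% of all genes measured. Ndufa1 ranged from 1.261 to 1.503 over those quartiles and mt-Nd5 from 1.19 to 1.40. No member had its ratio below 1 in all 4. mt-Nd4 ranged from 0.933 to 1.12 and mt-Co1 from 0.964 to 1.12. Within quartiles of Malat1 and Neat1 the nuclear sum stood at 1.04 in each of the 4, and the mitochondrial sum at 0.999, 0.993, 1.03 and 1.01. There mt-Nd4 and mt-Co1 had their whole interval below 1 in all 4 quartiles, as 24.6% of all genes did.

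**Figure D4:**
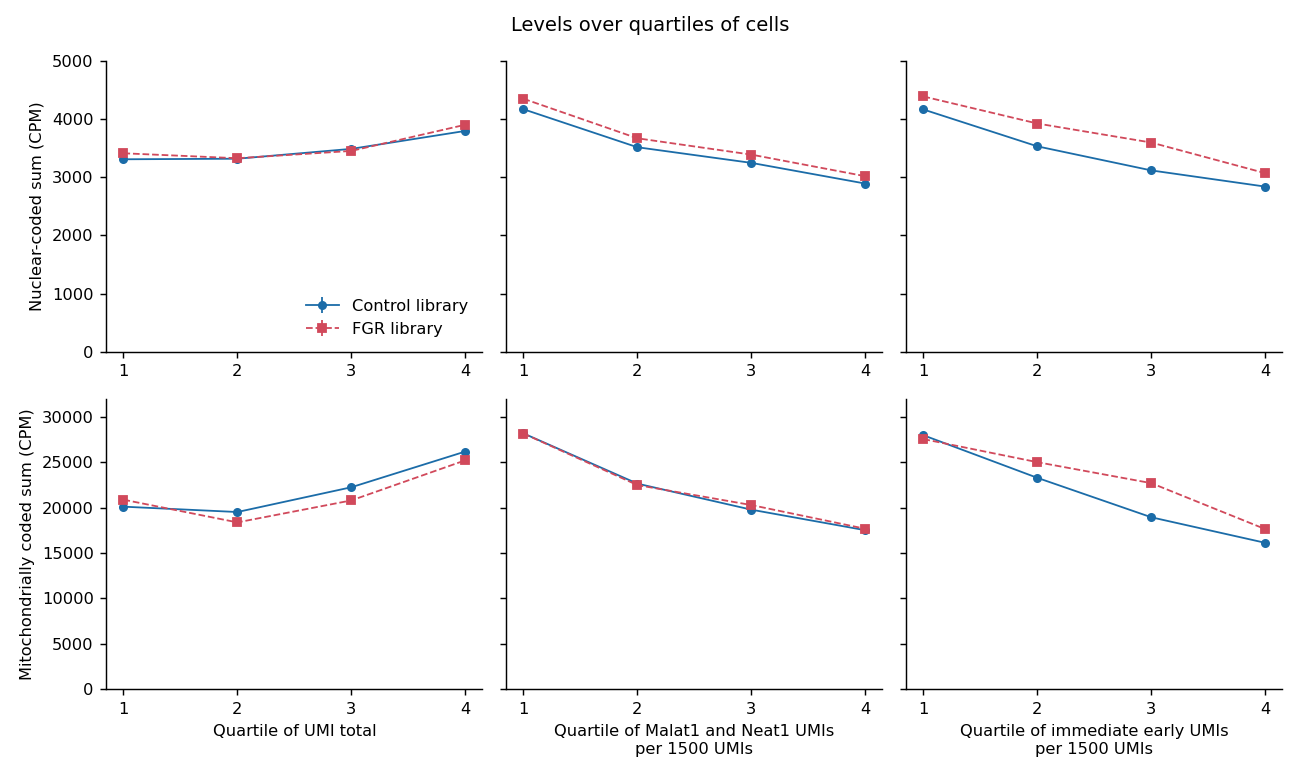
Summed level in CPM of the nuclear-coded members (upper row) and mitochondrially coded members (lower row) over quartiles of cells by UMI total, by Malat1 and Neat1 UMIs and by immediate early UMIs, in the Control library (circles, solid) and the FGR library (squares, dashed). Bars are 95% Poisson intervals, smaller than the points. Both sums decline over the Malat1 and immediate early quartiles, and the libraries separate most in the third immediate early quartile (mitochondrial sum 18944 and 22701 CPM).

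By cell size the difference again changed side. In cells of 1500 to 3000 UMIs (847 Control and 713 FGR) the mitochondrial sum was 21878 CPM in Control and 27632 CPM in FGR, a ratio of 1.26 (1.25 to 1.28). In this range the FGR cells also had fewer UMIs of the 12 microglial markers (32207 against 36810 CPM) and more of Malat1 and Neat1 (31819 against 26251 CPM), and the part of these in the result was not tested. In cells of over 3000 to 6000 UMIs it was 20845 and 19663 CPM (0.943), and above 6000 UMIs 26238 and 25395 CPM (0.968). The nuclear ratio in these ranges was 1.082, 1.001 and 1.031. In the middle range, with 7666 Control and 5673 FGR cells, its interval (0.992 to 1.010) held 1. In the lowest quartile of UMI total mt-Nd5 stood at 1.53 and mt-Co1 at 1.04, and in the highest at 1.051 and 0.903.

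Barcodes too small to count as cells were much richer in mitochondrial RNA. At 10 to 100 UMIs the mitochondrial sum was 81430 CPM in Control and 54640 CPM in FGR, over 100 to 500 UMIs 180608 and 144716 CPM, and from there to under 1500 UMIs 81197 and 71677 CPM. The nuclear sum in the same 3 ranges was 4621 and 4345 CPM, 7541 and 5875 CPM, and 4541 and 4424 CPM, against 3527 and 3613 CPM in cells. The level in barcodes of 10 to 100 UMIs was 3.60 times that in cells for the mitochondrial members in Control and 2.46 times in FGR, and 1.310 and 1.203 times for the nuclear members.

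The low-count barcodes moved with the mitochondrial ratios. Over the 13 mitochondrial members, rho between the ratio in cells and the ratio in barcodes of 10 to 100 UMIs was 0.90, and over the 24 nuclear members it was -0.04, beside 0.67 over all genes measured. RNA of red cells, which microglia do not make, was used to set how much of a cell's UMIs could come from such barcodes' RNA. This red cell bound was 3.29% in Control and 2.53% in FGR. It is an upper bound only if those barcodes have the profile of the RNA that reached cells, which was not tested. Red cell RNA was at 3291 and 1182 CPM in barcodes of 10 to 100 UMIs, and at 21376 and 5306 CPM over 100 to 500 UMIs. Subtracting that much of the low-count profile, a step chosen after seeing the data, changed the mitochondrial sum to 20618 CPM in Control and 21356 CPM in FGR, a ratio of 1.04 in place of 0.981. The same subtraction left the nuclear sum at 3490 and 3594 CPM. The lower mitochondrial sum of the FGR library thus did not hold at this bound, and the nuclear over mitochondrial ratio went from 1.044 to 0.994.

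**Figure D5:**
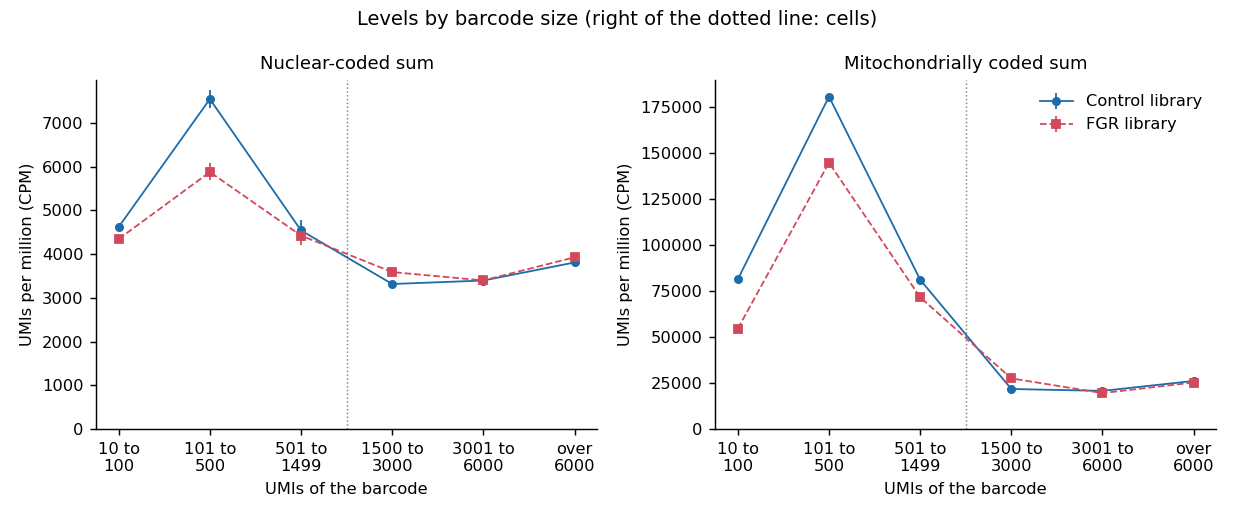
Summed level in CPM of the nuclear-coded (left) and mitochondrially coded (right) members by the barcode's UMI count, in the Control library (circles, solid) and the FGR library (squares, dashed), with 95% Poisson intervals. Left of the dotted line are barcodes too small to be cells: the mitochondrial sum peaks over 100 to 500 UMIs (180608 and 144716 CPM) and is far lower in cells of every size.

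At the mitochondrial limit itself, 27 Control and 30 FGR cells lay just inside, at 8 to 10% mitochondrial UMIs, and 13 and 19 barcodes just outside, at 10 to 15%. The nuclear sum inside was 6734 and 5879 CPM and outside 7111 and 7779 CPM. Both were above the level of all cells, and microglial markers were lower there (17783 and 16814 CPM inside, against 35153 and 33897 CPM over all cells). Cells under 1% mitochondrial UMIs had a nuclear sum of 2924 CPM in Control and 2941 CPM in FGR.

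Many cells held a UMI of some marker of another type, and few held several. Slc1a3 of the astrocyte list was detected in 48.8% of Control and 70.8% of FGR cells, Mbp of the oligodendrocyte list in 18.5% and 11.2%, and Mrc1 of the list for other macrophages in 14.2% and 11.5%. The oligodendrocyte markers did not move together. The 2 that reached 50 CPM had ratios of 0.432 and 5.68, and another marker than Mbp was the most detected in FGR, in 14.2% of cells. Their list summed to 189 CPM in Control and 239 CPM in FGR (1.27). The other defining astrocyte markers were lower, with Gfap in 0.449% and 0.534% and Aqp4 in 0.524% and 0.383% of cells. Summed over cells, the marker lists of other types ranged from 0.112 CPM for lymphocytes and neutrophils to 195 CPM for astrocytes in Control, and from 0.572 to 325 CPM in FGR. At 0 were 2 markers of other macrophages and 2 of lymphocytes and neutrophils in Control, and 1 of the latter in FGR. Markers were counted per cell after thinning, and 3 or more UMIs of a list placed a cell in its range, which is a range and not a cell type. Oligodendrocyte markers did so in 241 Control and 42 FGR cells, where the nuclear sum was 3601 and 4653 CPM and the mitochondrial sum 23507 and 34280 CPM. Astrocyte markers did so in 79 and 168 cells, with nuclear sums of 3798 and 3722 CPM. This range counts UMIs, and Slc1a3 alone can fill it. Cells with 3 or more different astrocyte markers went the other way, at 0.852% of Control and 0.511% of FGR cells. Vascular markers did so in 12 Control cells, too few to give, and in 39 FGR cells, which had the highest sums of any marker range given, 6138 CPM for the nuclear and 42249 CPM for the mitochondrial members. The 25 Control and 21 FGR cells with proliferation markers had nuclear sums of 4152 and 5229 CPM at mitochondrial sums of 21419 and 22097 CPM. A wider cut kept only cells with fewer than 3 UMIs of all other-type and proliferation markers together, 9991 Control and 8099 FGR cells. There the nuclear ratio was 1.02 and the mitochondrial ratio 0.978.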

How the data were processed

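The deposited files hold UMI counts per gene and barcode for 2 libraries, with barcodes below cell size kept. Per the submitters' processing notes the authors used Cell Ranger 3.0, Seurat 5.0 and the mm10 genome, while the header of the matrices names Cell Ranger version 4. Cells were called again here at 1500 UMIs, 200 genes and at most 10% of mt- UMIs. No doublet caller was run. UMIs were summed per library and divided by all UMIs of its cells. Levels have exact Poisson intervals, ratios exact conditional binomial intervals and the ratio of ratios a log-normal interval, all at 95% and for counting error only. With 1 library a group there was no test across libraries. Thinning drew 1500 UMIs per cell at random without replacement. The ratio and its intervals were run on counts simulated with counting error only. Such counts leave out variation between cells, so the run checks the calculation and not how the intervals hold for these data. Promoter and mitochondrial sequences came from RefSeq and GENCODE tables. The 37 members, the other gene lists and the named genes (all members, up to 4 per other list by size of change, and genes counted past a fold) were chosen with earlier results of these data known. Of 11 alternatives, 1 was chosen after seeing the data. Symbols with several gene IDs (38) were summed. Python 3.11.15, numpy 2.4.6, scipy 1.17.1 and pandas 2.3.3 were used.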

Additional observations from a re-analysis of the deposited data

How the results depend on the processing

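The nuclear-coded sum stayed above 1 under all 11 alternatives, and no nuclear or mitochondrial member was past 1.1-fold lower under any. Its ratio of 1.02 became 1.04 with CPM of UMIs outside Malat1, immediate early and mt- genes, where 2 nuclear members in place of 1 were past 1.1-fold higher, and 1.01 without the 6% of cells with the most UMIs. The mitochondrial ratio of 0.981 became 0.971 at a minimum of 3000 UMIs and 0.976 at a limit of 5% mt- UMIs. In cells with fewer than 3 UMIs of other-type and proliferation markers together it was 0.978. Without the 6% of cells with the most UMIs it was 0.974. With equal weight per cell it was 0.993, and with CPM of UMIs outside Malat1, immediate early and mt- genes 0.996. It turned to 1.049 with the low-count profile subtracted at 5% of UMIs, which is above the red cell bound in both libraries. At that bound, a setting chosen after seeing the data, it was 1.04. The nuclear over mitochondrial ratio of 1.04 was 1.053 at 3000 UMIs and 1.03 with equal weight, and turned to 0.982 and 0.994 under the same subtractions; the cause was not tested. At 5% subtracted, 5 mitochondrial members were past 1.1-fold higher. The share of all genes past 1.1-fold higher, 9.2%, was counted in the main setting only. Counts of members under the alternatives therefore have no share of all genes beside them. Ndufa1, mt-Nd4l and mt-Nd5 stayed past 1.1-fold under each of the 11. The rho of 0.23 and 0.24 between the sums was 0.35 and 0.33 on unthinned shares and 0.31 and 0.29 at 3000 UMIs per cell. No paired analysis was possible because each group has 1 library. Depth limits both single members and their sums within a cell.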

Other observations

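Large differences lay among genes that copy mitochondrial DNA, below the level used for counting. Polg2, the accessory subunit of the mitochondrial DNA polymerase, was at 22.8 CPM in Control and 9.22 CPM in FGR (1220 and 419 UMIs), a ratio of 0.405 (0.361 to 0.453). Twnk, the helicase of the same replication fork, was at 17.1 and 8.36 CPM (915 and 380 UMIs), a ratio of 0.490 (0.433 to 0.552). Polg, the catalytic subunit, stood at 41.9 and 44.3 CPM (1.06, 0.996 to 1.12). Polg2 and Twnk were picked out after their values were seen, and both overlap another gene: Polg2 shares 542 bases with Milr1, which was at 22.5 and 18.8 CPM (0.836), and Twnk shares 780 bases with Mrpl43, at 96.8 and 88.9 CPM (0.918). No source at hand states the strand setting of the counting.

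Slirp and Lrpprc, which together bind and stabilise mitochondrial messenger RNA, were the 2 genes between 10 and 50 CPM of the list of mitochondrial DNA and RNA genes with their whole interval above 1, at 39.7 and 47.0 CPM (1.19, 1.12 to 1.26) and at 37.6 and 40.3 CPM (1.07, 1.005 to 1.14).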
